A study of Mus musculus with 6 samples.

Results

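The proteasome subunit genes were taken as the protein-coding genes whose symbols begin with Psma, Psmb, Psmc, Psmd, Psme, Psmf or Psmg, leaving out Psmb8, Psmb9 and Psmb10. The rule found 47 genes among the 54532 genes of the deposited tables. Of these, 16 encode the core particle, 17 encode the regulatory particle, 7 encode assembly chaperones and 6 encode activators or an inhibitor. The last, Psmc3ip, shares only the prefix, since its protein acts in meiotic recombination. After the count filter 46 genes were tested. Psmb11, the thymus form of a catalytic subunit, had 0 counts in all 6 libraries.

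The proteasome is the protease that degrades proteins marked with ubiquitin. Its core particle is a barrel in which outer rings of alpha subunits control entry and inner rings of beta subunits carry the cutting sites. The regulatory particle caps the barrel, where its non-ATPase subunits bind ubiquitin and remove it and its ring of ATPases unfolds the substrate. Hematopoietic stem cells are known to depend on tight control of protein synthesis and degradation.

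RNA was measured in LSK cells, the marrow fraction enriched for stem and multipotent progenitor cells, from male mice. The 3 floxed libraries (genotype Phf6fl-R274X/Y) carried an X-linked allele of Phf6, a PHD finger gene, that is switched by Cre to the R274X stop codon. The 3 Vav1-Cre libraries (genotype Vav1-Cre; Phf6fl-R274X/Y) carried the same allele and a Cre transgene driven by Vav1, which is active in blood cells. All 6 libraries share the floxed allele, and Cre was present in every Vav1-Cre library and in no floxed one, so an effect of Cre itself cannot be told apart from that of the mutation. No source used here states the age of the mice or any treatment. The labels do not say that each library came from its own animal, and the p-values therefore rest on library-to-library spread that could be technical.

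Phf6 RNA was 3.51-fold lower in the Vav1-Cre libraries (31.6 ± 1.98 against 9.01 ± 1.08 CPM, SD, n = 3 each; edgeR adjusted p = 6.67e-06). Total counts ran from 15406314 to 18106065 per library. Levels are given as CPM, counts relative to library size, after TMM scaling, which sets library sizes by the bulk of genes. Immunoglobulin genes took 0.293% to 1.18% of counts in the floxed libraries and 4.45% to 7.95% in the Vav1-Cre libraries. Beside the marker counts that follow, 10.1% of all tested genes were called higher and 7.89% lower (edgeR adjusted p under 0.05). Of 11 B and plasma cell markers 8 were called higher and none lower. Their summed level ran from 1748 to 5789 CPM in floxed and from 20515 to 37661 CPM in Vav1-Cre libraries. Of 7 macrophage markers 5 were called higher and none lower (207.6 to 393.2 against 849.8 to 1728 CPM). The erythroid sum (2 of 5 higher, none lower) ran from 709 to 1056 against 1623 to 2770 CPM. For T and NK cells 5 of 6 were higher and 1 lower (158.9 to 178.4 against 110.2 to 131.9 CPM), where the sum is mostly Nkg7, the marker that was lower, and for neutrophils none of 7 was called (16790 to 28175 against 12678 to 33379 CPM). All 6 genes listed for the LSK gate were detected, with 5 called lower and 1 higher (1440 to 1515 against 1101 to 1227 CPM). No listed marker was at 0 in every library. The part of these cells in the proteasome results was not tested. In such bulk libraries fewer cells of a type and less RNA per cell cannot be told apart.

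Promoter sequence is shown for some of the members called higher in the Vav1-Cre libraries. The windows are the bases before the RefSeq gene start (GRCm38.p6, up to 250 bases, read on the gene's strand) that lie in no annotated exon. Psmb5 and Psme2 had the smallest p of the beta ring and of the activators. Psmb6 and Psmd12 are the other members called higher whose window holds TGACNNNGC, the core of the antioxidant response element bound by the factor Nfe2l1. They were picked for that element, so the printed windows hold it more often than the members do. Psmc6 and Psmd9 hold it too but were not called and are not shown. Capitals mark that element on either strand.
Psmb5, chr14:54618023-54618245, minus strand: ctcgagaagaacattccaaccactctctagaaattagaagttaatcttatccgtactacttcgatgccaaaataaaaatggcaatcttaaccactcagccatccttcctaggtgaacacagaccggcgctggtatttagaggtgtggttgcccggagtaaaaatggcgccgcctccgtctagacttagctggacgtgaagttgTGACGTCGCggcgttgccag
Psmb6, chr11:70525107-70525356, plus strand: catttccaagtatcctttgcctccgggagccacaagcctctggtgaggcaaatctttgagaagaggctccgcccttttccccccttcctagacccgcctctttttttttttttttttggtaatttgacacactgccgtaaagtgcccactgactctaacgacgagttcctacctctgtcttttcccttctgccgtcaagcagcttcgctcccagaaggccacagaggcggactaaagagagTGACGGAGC
Psmd12, chr11:107479278-107479483, plus strand: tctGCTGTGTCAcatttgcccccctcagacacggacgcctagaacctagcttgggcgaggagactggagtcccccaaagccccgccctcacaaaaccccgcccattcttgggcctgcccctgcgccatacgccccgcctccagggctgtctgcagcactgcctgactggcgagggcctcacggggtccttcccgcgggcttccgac
Psme2, chr14:55591114-55591351, minus strand: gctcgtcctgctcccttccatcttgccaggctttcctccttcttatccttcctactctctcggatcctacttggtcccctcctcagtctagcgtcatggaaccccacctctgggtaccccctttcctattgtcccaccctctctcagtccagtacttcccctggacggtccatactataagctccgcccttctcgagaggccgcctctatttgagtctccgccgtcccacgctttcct

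The promoter table held 39 of the 47 members. TGACNNNGC was found on either strand in the 250 bases of 5 of these (12.8%), against 11.5% of the 27025 genes in the table. CCAAT, the letters bound by the factor NF-Y, was found in 14 of 39 (35.9%) against 37.5%. A match to one motif can share bases with a match to the other. Among members called higher, 3 of 16 held TGACNNNGC and 6 of 16 held CCAAT, and among tested members that were not called the counts were 2 and 7 of 22. CCAAT was held by 7 of 12 core particle genes and by 4 of 14 regulatory particle genes. These matches describe letters in a window and do not show binding.

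After TMM scaling, many proteasome genes were slightly higher in the Vav1-Cre libraries. Of 46 tested members 21 were higher, 1 was lower and 24 did not pass an edgeR adjusted p of 0.05, taken over all 14608 tested genes. Among all tested genes 10.1% were called higher and 7.89% lower. Members are well expressed, and among the 3940 tested genes with a mean of at least 50 CPM 17.8% were called higher and 7.77% lower. In that range lie 38 members, of which 20 were called higher and none lower. The fold changes of the 21 ran from 1.19 for Psmb6 to 1.43 for Psme2, and 43 of 46 members had a positive log2 fold change, against 47.8% of all tested genes. The median log2 fold change was 0.23 over the members, -0.02 over all tested genes and 0.06 over tested genes with a mean of at least 50 CPM. Groups did not overlap in 30 members that were higher, and in 1 that was lower, where 18.9% and 18.3% of all tested genes did so.

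The number of calls depended on the libraries, and the size of the rise on scaling. With 1 library left out the members' median log2 fold change ran from 0.19 to 0.28. Without Vav1-Cre 1, floxed 2, Vav1-Cre 2 or floxed 1 the number called higher was 10, 10, 11 and 11, and without floxed 3 or Vav1-Cre 3 it was 15 and 23. The same 9 members stayed called whichever library was left out: Psmb3, Psmb5, Psmc5, Psmd3, Psmd4, Psmd6, Psmd8, Psmd13 and Psme2. Over all 19 alternatives no member kept its call as higher in every one, and 5 kept it in every one but quantile scaling (Psmb3, Psmc5, Psmd4, Psmd13 and Psme2). With quantile scaling of log2(FPKM + 1), which forces 1 distribution on all libraries, no member was called higher by limma. Psma1 and Psma8 were called lower. At an unadjusted limma p under 0.05, 6 members were higher and 8 lower in that setting. The members' median there was -0.005, and 21 of 46 members turned sign. The rises below are relative to TMM scaling. The TMM factors, which multiply the library sizes, were 1.04, 1.09 and 1.05 in the floxed and 0.916, 0.942 and 0.972 in the Vav1-Cre libraries. They thus differed between the groups without overlap and raise Vav1-Cre levels relative to floxed ones. As a share of unscaled counts the members were 1.06-fold higher. Of all calls 56.0% were higher with TMM, 45.9% with upper-quartile scaling, 47.6% with an offset for gene length and 36.7% with quantile scaling. The plot of fold changes gives every tested member.

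**Figure D1:**
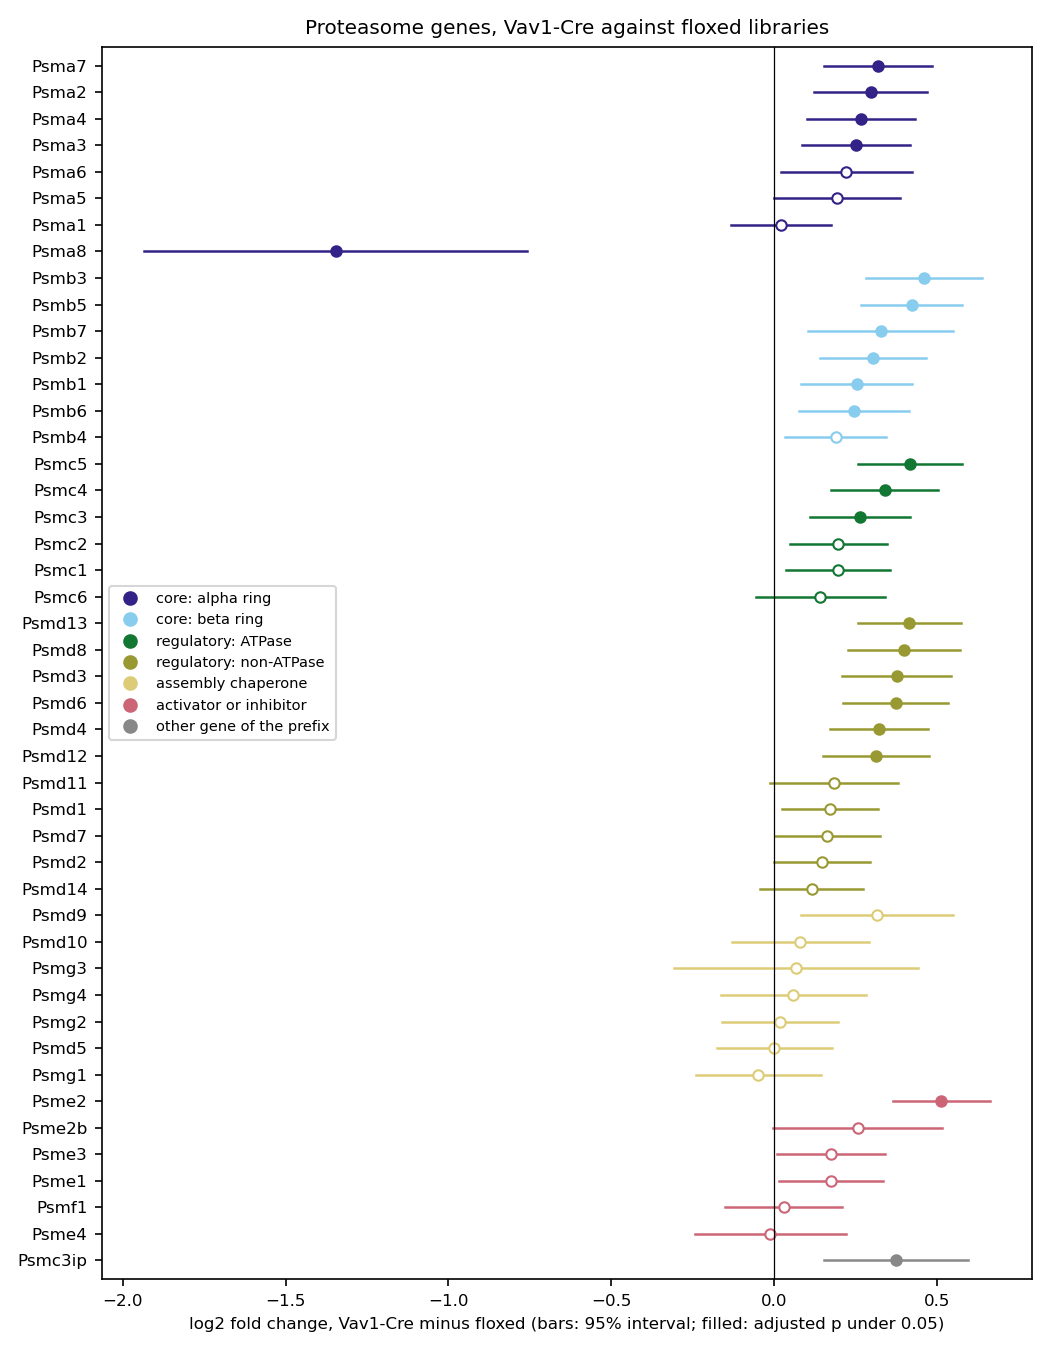
Fitted log2 fold change (Vav1-Cre minus floxed) of the 46 tested proteasome genes, ordered by role, with 95% intervals from edgeR; filled points have an adjusted p under 0.05. Most subunits of both particles lie near the members' median of 0.23, assembly chaperones lie nearer 0 with a median of 0.06, and Psma8 stands alone at -1.35.

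In the alpha ring, whose subunits form the gate of the barrel, 4 of 8 genes were higher, 1 was lower and 3 did not pass, with a median of 0.24. Psma7 (ENSMUSG00000027566, chr2:180036374-180042433, GRCm38) measured 222.8, 223.1 and 240.2 CPM in the floxed and 304.8, 285.6 and 265.8 CPM in the Vav1-Cre libraries. Its groups did not overlap, and it rose 1.25-fold (log2 0.32, SE 0.077, edgeR adjusted p = 0.0139). Psma2 measured 203, 192.1 and 209.8 against 272.7, 234.6 and 236.4 CPM, with Vav1-Cre 1 the highest of the 6 (log2 0.30, edgeR adjusted p = 0.0233). Psma4 measured 147.1, 146.9 and 155.2 against 194.7, 179.9 and 166 CPM, again without overlap (log2 0.27, edgeR adjusted p = 0.0304). The fourth, Psma3, rose 1.19-fold. Psma5 and Psma6 did not pass, with log2 fold changes of 0.19 and 0.22 (edgeR adjusted p = 0.158 and 0.118).

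These alpha ring calls did not hold with fewer libraries, while the fold changes stayed positive. Psma7 lost its call without Vav1-Cre 1, Vav1-Cre 2, floxed 1 or floxed 2 (edgeR adjusted p 0.0671, 0.0512, 0.0732 and 0.0696), with log2 fold changes of 0.27, 0.32, 0.29 and 0.28. Psma2 lost it without Vav1-Cre 1, floxed 1 or floxed 2 (0.107, 0.084 and 0.114). Psma4 lost it without any 1 of Vav1-Cre 1, Vav1-Cre 2 and the 3 floxed libraries (edgeR adjusted p 0.0502 to 0.127), and Psma3 likewise without each of these. Psma4 also lost it with an offset for gene length (log2 0.18, edgeR adjusted p = 0.0968). Psma1, picked out after its values were seen as the ring member nearest 0, measured 218, 204.1 and 220.9 against 226.2, 213.1 and 213.6 CPM. Its groups overlapped (log2 0.02, 95% interval -0.13 to 0.18, edgeR adjusted p = 0.856), and the sign turned with upper-quartile scaling, the length offset and quantile scaling.

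Psma8 was the 1 member called lower. It encodes the alpha subunit that replaces the Psma7 product in the proteasome of male germ cells. Counts were 104, 94 and 66 in the floxed and 31, 28 and 25 in the Vav1-Cre libraries, or 5.51, 5.04 and 3.55 against 2, 1.85 and 1.67 CPM. All floxed values lay above all Vav1-Cre values, and the level was 2.54-fold lower (log2 -1.35, SE 0.272, edgeR adjusted p = 0.00549). Its adjusted p stayed below 0.05 in all 19 alternative settings, those leaving out a library among them, with log2 fold changes from -1.52 to -0.84. At 2.75 ± 0.589 FPKM (SD, n = 3) in floxed libraries it was the lowest of the members detected, and reads shared with the related Psma7 cannot be told apart by these tables.

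The beta ring had 6 of 7 tested genes higher, the other being Psmb4, and its median was 0.30. Psmb5 carries the chymotrypsin-like site, which proteasome inhibitors used as drugs mainly target, and is the gene whose promoter is printed first. It measured 117.6, 121.7 and 120.5 CPM in the floxed libraries and 172.1, 157.3 and 153.2 CPM in the Vav1-Cre libraries. The floxed values lay close together and below every Vav1-Cre value, and the rise was 1.34-fold (log2 0.42, SE 0.0721, edgeR adjusted p = 0.00225). With an offset for gene length Psmb5 was at log2 0.065 and was not called (edgeR adjusted p = 0.576), and with quantile scaling it was at 0.049. Psmb3, a structural subunit, measured 176.4, 169.5 and 168.9 against 263, 228.6 and 216.9 CPM. Its rise of 1.38-fold was the largest of the core particle (log2 0.46, SE 0.0818, edgeR adjusted p = 0.00288).

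Psmb2, another structural subunit, measured 171, 153.5 and 158.5 against 210.6, 196.7 and 189.2 CPM, with no overlap (log2 0.30, edgeR adjusted p = 0.0156). It lost its call without Vav1-Cre 1, Vav1-Cre 2, floxed 2 or floxed 3 (edgeR adjusted p 0.0699, 0.0501, 0.0843 and 0.0522), and with the length offset its log2 fold change was 0.15 (edgeR adjusted p = 0.12). Psmb1, also structural, measured 261.1, 240.3 and 275.5 against 322, 313.7 and 290.9 CPM (log2 0.25, edgeR adjusted p = 0.0416) and lost its call without Vav1-Cre 1, Vav1-Cre 2, floxed 1 or floxed 2 (0.144, 0.125, 0.128 and 0.183). The other catalytic genes, Psmb6 with the caspase-like site and Psmb7 with the trypsin-like site, rose 1.19-fold and 1.26-fold. Psmb6 measured 203.2, 188.2 and 189.6 against 248.8, 228.2 and 212.6 CPM. Psmb7 measured 129.5, 126.4 and 154.7 against 194, 167.8 and 153.8 CPM, so floxed 3 lay just above Vav1-Cre 3. Of its exon bases 11.8% also belong to Nek6 on the other strand, and no source says whether strand was kept. Both lost their calls without Vav1-Cre 1, Vav1-Cre 2, floxed 1 or floxed 2, Psmb6 also without floxed 3. Psmb4 did not pass (275.5, 277.6 and 279.5 against 334.5, 302 and 313.1 CPM, log2 0.19, 95% interval 0.03 to 0.35, edgeR adjusted p = 0.0871), although its groups did not overlap.

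In the ATPase ring, which unfolds substrates, 3 of 6 genes were higher and 3 did not pass, with a median of 0.23. Psmc5 measured 110.2, 100.7 and 114 against 150.7, 140.4 and 143.1 CPM. The groups were well apart, with a rise of 1.34-fold (log2 0.42, SE 0.0741, edgeR adjusted p = 0.00282). Psmc4 measured 113.3, 123.7 and 116.6 against 155.2, 155 and 137.7 CPM (log2 0.34, edgeR adjusted p = 0.00918), and lost its call without floxed 1 (0.0537). Psmc3 measured 185.6, 181.5 and 181.8 against 226.6, 226.6 and 206.4 CPM (log2 0.26, edgeR adjusted p = 0.0227). It lost its call without any 1 of Vav1-Cre 1, Vav1-Cre 2 and the floxed libraries (edgeR adjusted p 0.0601 to 0.0883), and 8.25% of its exon bases overlap Slc39a13. Psmc1 did not pass (log2 0.20, edgeR adjusted p = 0.0818), and Psmc2 had the next smallest p (log2 0.20, 95% interval 0.05 to 0.35, edgeR adjusted p = 0.0654). Psmc6 was lowest, at 91.2, 83.3 and 107.9 against 108.2, 102.4 and 101.1 CPM, where floxed 3 lay among the Vav1-Cre values (log2 0.14, 95% interval -0.06 to 0.34, edgeR adjusted p = 0.312).

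Of 11 non-ATPase subunits of the regulatory particle 6 were higher and 5 did not pass, with a median of 0.31 and no negative value. Psmd13, a lid subunit, measured 98.8, 109 and 107.9 against 147.1, 139.5 and 134.7 CPM, a rise of 1.33-fold (log2 0.42, SE 0.0734, edgeR adjusted p = 0.00279). Its exons overlap those of Sirt3 on the other strand over 10.1% of their length. Psmd8, also of the lid, measured 194.1, 187.5 and 200.1 against 271.2, 265.8 and 230.7 CPM (log2 0.40, edgeR adjusted p = 0.00509). Psmd6 measured 98.5, 92.1 and 106.4 against 130.7, 126.6 and 127.4 CPM (log2 0.37, edgeR adjusted p = 0.00514). In each of these lid genes the lowest Vav1-Cre library exceeded the highest floxed library.

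Psmd3, another lid subunit, measured 139.5, 145.1 and 130.6 against 188.3, 185.5 and 165.6 CPM (log2 0.38, edgeR adjusted p = 0.0059). Psmd4, a ubiquitin receptor, and Psmd12 were the others called, at 1.25-fold and 1.24-fold. Psmd12, whose promoter is printed above, lost its call without Vav1-Cre 1, Vav1-Cre 2, floxed 1 or floxed 2. Psmd14, the deubiquitinase that strips ubiquitin from substrates, was lowest (102.6, 97.7 and 106 against 117.2, 109.8 and 105.2 CPM, log2 0.12, 95% interval -0.04 to 0.27, edgeR adjusted p = 0.297). Its floxed 3 value lay just above Vav1-Cre 3. Psmd1, Psmd2, Psmd7 and Psmd11 did not pass either, with log2 fold changes from 0.15 to 0.18.

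Core and regulatory genes had similar median fold changes. The median log2 fold change was 0.25 over 15 tested core genes and 0.27 over 17 regulatory genes, and 10 and 9 genes were called higher. Summed FPKM, the authors' values per length, was 1222 ± 46.0 in floxed and 1482 ± 108.8 in Vav1-Cre libraries for the core (SD, n = 3 each). For the regulatory particle it was 722.6 ± 19.9 and 884.5 ± 37.3. The ratio of core to regulatory FPKM was 1.71, 1.67 and 1.69 in the floxed and 1.75, 1.62 and 1.66 in the Vav1-Cre libraries. The group means of 1.69 ± 0.0234 and 1.67 ± 0.0649 differed by less than the spread between libraries.

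Vav1-Cre 1 was the highest of the 6 libraries in 14 of 15 tested core genes and in 13 of 17 regulatory genes. Over core genes other than Psma8 the median log2 ratio to the floxed mean was 0.38, 0.25 and 0.17 in Vav1-Cre 1, 2 and 3, and over regulatory genes it was 0.31, 0.31 and 0.19. In the plot of library values the core median thus stands highest in Vav1-Cre 1, while the regulatory medians are alike in Vav1-Cre 1 and 2. Without Vav1-Cre 1 the core genes called higher numbered 2 and the regulatory genes 7. The core count was also 2 without floxed 2, 3 without floxed 1 or Vav1-Cre 2, and 6 without floxed 3, while the regulatory count was 7, 6, 7 and 8 in those fits. Without Vav1-Cre 3 the counts were 10 and 11. No test of the difference between the particles was made.

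**Figure D2:**
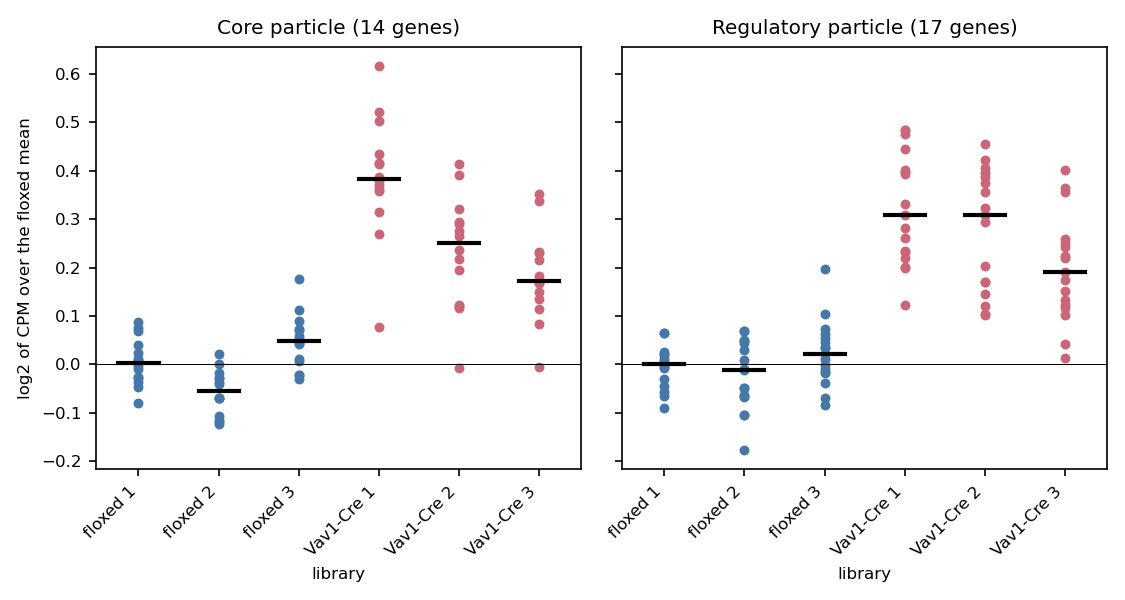
Each point is 1 gene in 1 library, as log2 of its CPM over the mean of the 3 floxed libraries; bars are medians over 14 core genes (Psma8 and the undetected Psmb11 left out) and 17 regulatory genes. Core medians were 0.38, 0.25 and 0.17 in Vav1-Cre 1, 2 and 3, and regulatory medians were 0.31, 0.31 and 0.19.

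**Figure D3:**
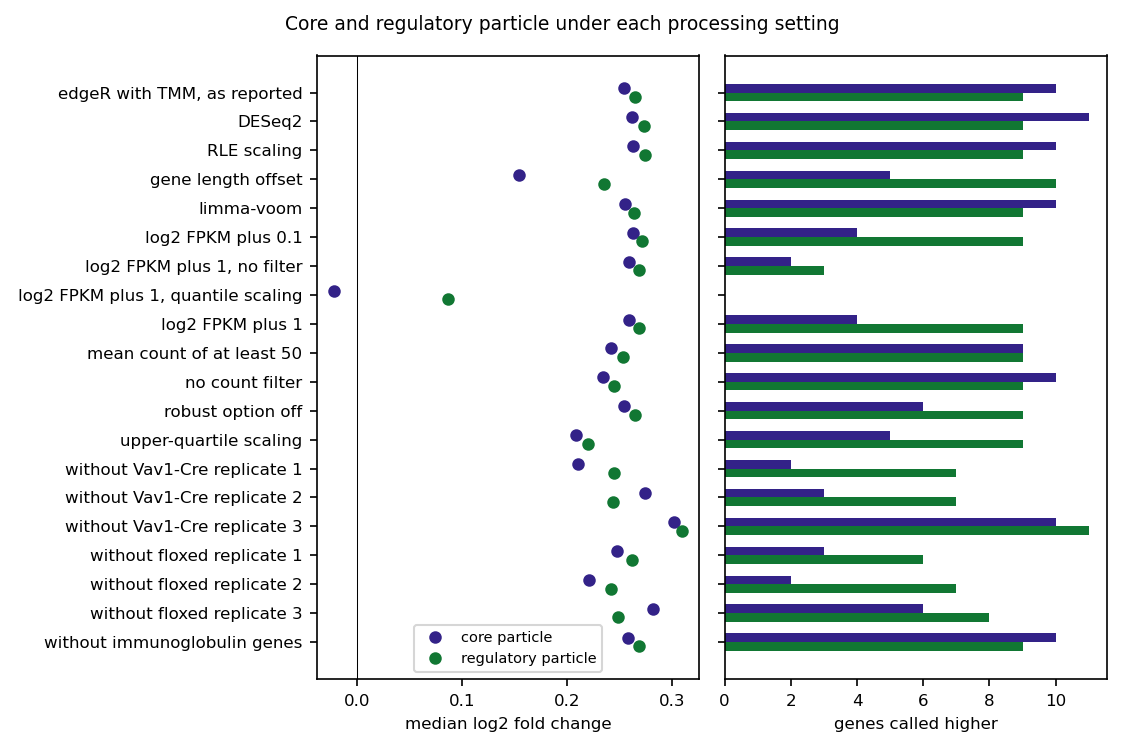
Median log2 fold change (left) and number of genes called higher (right) for the core and the regulatory particle under each setting. Both medians stay above 0.15 in all settings but quantile scaling, where they are -0.02 and 0.09, and the core count ranges from 0 to 11.

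Gene length moved with the particles. The median length was 2335 bases for core and 2820 bases for regulatory genes, against 3855 bases over all tested genes. With an offset fitted to gene length in each library the core median was 0.15 with 5 genes called higher, and the regulatory median was 0.24 with 10. In that fit 7 of the 21 members lost their call: Psma4, Psmb2, Psmb5, Psmb6, Psmb7, Psmc3 and Psmc3ip. Psmb5, at 899 bases, is the shortest detected gene of the core and regulatory particles. Psmc2, Psmd1 and Psmd9 were newly called higher. The part of length in these results was not tested beyond this fit.

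None of the 7 assembly chaperones was called by edgeR, DESeq2 or limma-voom. Over all tested genes edgeR called 10.1% higher and 7.89% lower, so 0 calls among 7 genes lies near those shares. Pomp, an assembly chaperone outside the symbol rule, was called higher (log2 0.31, edgeR adjusted p = 0.0196) and is described below. In each tool 1 of the 7, Psmd9, had an unadjusted p under 0.05. The median log2 fold change in edgeR was 0.06, with values from -0.05 to 0.32. With quantile scaling limma called none of the 7, and at an unadjusted p under 0.05 it had 0 higher and 3 lower. Psmg1 and Psmg2 act as a pair, as do Psmg3 and Psmg4, in building the alpha ring, and Psmd5, Psmd9 and Psmd10 help to assemble the ATPase base. Psmg1 measured 43.1, 43.4 and 44.9 against 45.3, 38.2 and 43.6 CPM, with the groups interleaved (log2 -0.05, 95% interval -0.24 to 0.14). Psmg4 measured 60.1, 51.3 and 64.5 against 68.9, 57.5 and 57.1 CPM (log2 0.06, 95% interval -0.16 to 0.28). With the length offset Psmg4, a gene of 555 bases, was called lower (log2 -0.63, edgeR adjusted p = 0.000255).

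Psmd9 measured 43.4, 42.4 and 33.5 against 54.1, 46.1 and 48.4 CPM, without overlap (log2 0.32, 95% interval 0.08 to 0.55, edgeR adjusted p = 0.0607). It passed with no count filter (0.0231) and with the length offset (0.0316). Psmd10 measured 34.2, 33.1 and 39.7 against 39.8, 35.7 and 37.7 CPM (log2 0.08, 95% interval -0.13 to 0.29). Psmg2, Psmg3 and Psmd5 had log2 fold changes of 0.02, 0.07 and 0.0013. The intervals of Psmg4 and Psmd10 hold changes of the size seen in subunits, so equal levels are not shown. A test of chaperones against subunits was not made.

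Among activators and the inhibitor 1 of 6 was higher, with a median of 0.18. That share of 16.7% lies near the 10.1% of all tested genes called higher. Among tested genes with a mean of at least 50 CPM it was 17.8%. Psme2 encodes a subunit of the interferon-inducible activator that caps the core in place of the regulatory particle. It measured 107.6, 116.1 and 114.3 against 158.4, 160.2 and 164.2 CPM and had the smallest p of all members (1.43-fold, log2 0.51, SE 0.0688, edgeR adjusted p = 0.000591). All 3 Vav1-Cre values lay close together and above the highest floxed value. Its partner in the same ring, Psme1, measured 425.9, 420.8 and 424 against 502.5, 451.9 and 481 CPM. The groups of Psme1 did not overlap, but it did not pass (log2 0.18, 95% interval 0.02 to 0.33, edgeR adjusted p = 0.116). The 95% interval of Psme2, 0.37 to 0.66, lay above that of Psme1; the difference between the genes was not tested.

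Psme2b, a retrocopy of Psme2, measured 66.8, 51.7 and 50.4 against 75.5, 63.9 and 62.5 CPM (log2 0.26, edgeR adjusted p = 0.158). It passed without floxed 1 (0.0376), and the division of reads between it and Psme2 is uncertain. Psme3, the nuclear activator, measured 151.7, 177.5 and 159.3 against 179.6, 190.7 and 181.7 CPM (log2 0.18, edgeR adjusted p = 0.133). Psme4, an activator linked to histone degradation, measured 27.6, 26.6 and 24 against 26.5, 27.7 and 23.4 CPM (log2 -0.01, 95% interval -0.24 to 0.22). The inhibitor gene Psmf1 did not pass. Psmc3ip rose 1.30-fold (23.8, 24.1 and 21.7 against 32.8, 28.9 and 28.6 CPM, edgeR adjusted p = 0.0251), but 21.2% of its exon bases overlap Mlx, and the call was lost without any 1 library other than Vav1-Cre 3 (0.0561 to 0.115).

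Per length, core genes stood above regulatory genes. The median floxed level was 72.9 FPKM over the 16 core genes, 35.9 FPKM over the regulatory genes and 24.1 FPKM over the chaperones. Psme1 was highest of all members at 190.1 ± 2.08 FPKM (SD, n = 3), followed by Psma6 at 153.3 ± 11.8, Psmb4 at 141 ± 1.55, Psmb2 at 132.6 ± 7.74 and Psmb5 at 132.3 ± 2.13 FPKM. Psma6 and Psmb4 differed by about their spread, and Psmb2 and Psmb5 by less than theirs. In the Vav1-Cre libraries Psmb5 reached 178.4 ± 10.7 FPKM, level with Psma6 at 179.9 ± 22.0. At the low end of the regulatory particle were Psmd1 (11.4 ± 0.228 FPKM) and Psmd11 (7.55 ± 0.276 FPKM). FPKM divides by the merged exon length of a gene, so long untranslated or rarely used exons lower it.

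**Figure D4:**
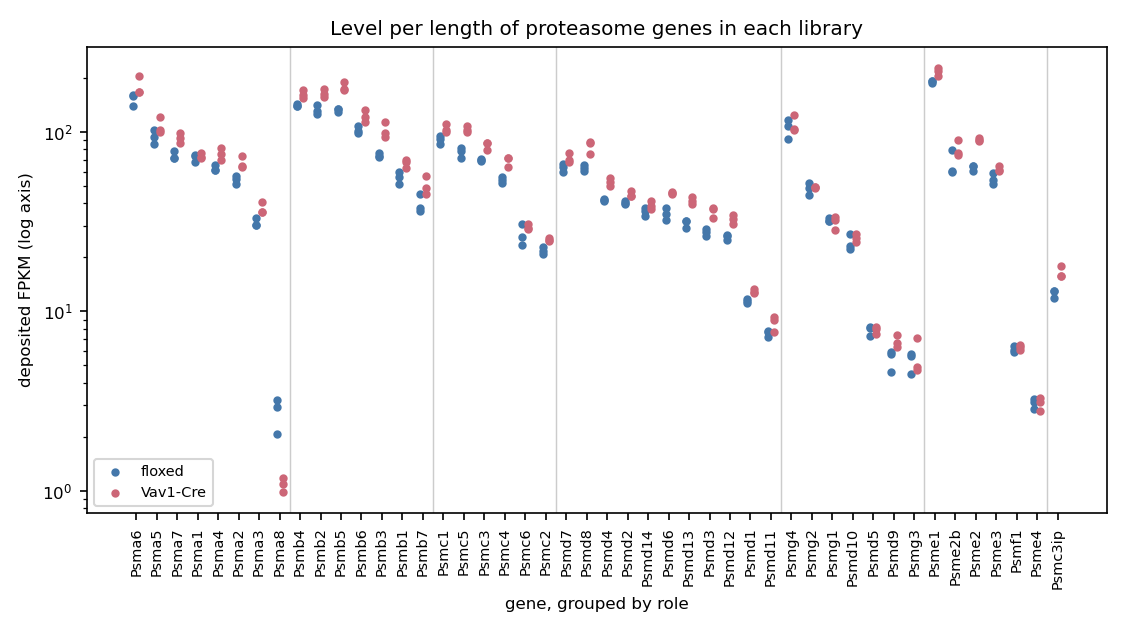
Deposited FPKM (log axis) of each detected member in the 3 floxed and 3 Vav1-Cre libraries, grouped by role in the order alpha ring, beta ring, ATPase, non-ATPase, chaperone, activator or inhibitor, and Psmc3ip. Levels span from about 190 FPKM for Psme1 to 2.75 FPKM for Psma8 in floxed libraries, and the shift between groups is small beside the span between genes.

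All members together took 0.604%, 0.612% and 0.615% of counts in the floxed and 0.664%, 0.637% and 0.636% in the Vav1-Cre libraries. The share was 1.06-fold higher by this measure (0.610 ± 0.00591% against 0.646 ± 0.0158%, SD, n = 3 each). Outside immunoglobulin genes it was 0.615 ± 0.00755% against 0.690 ± 0.0237%, or 1.12-fold higher. The groups did not overlap in either share. The members are spread over 16 chromosomes, with 10 on chromosome 11, of which 6 were higher, and 6 each on chromosomes 2 and 14, of which 3 each were higher. Those on chromosome 14 include the untested Psmb11. Of all tested members 45.7% were called higher, and clustering by chromosome was not tested. Psme1 and Psme2 lie next to each other at chr14:55578123-55581529 and chr14:55587441-55591113.

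Among other genes of the ubiquitin system 7 of 29 tested were higher, 1 was lower and 21 did not pass, with a median of 0.14. The share higher was 24.1%, against 10.1% of all tested genes and 17.8% of those with a mean of at least 50 CPM. The shuttle factors Rad23b and Ubqln1, which carry ubiquitin-marked proteins to the proteasome, were higher. Rad23b measured 166.4, 179.9 and 192.5 against 218.6, 240 and 213.9 CPM (log2 0.32, edgeR adjusted p = 0.0163). Ubqln1 measured 101.1, 95.7 and 98.6 against 117.2, 126.2 and 109.6 CPM (log2 0.26, edgeR adjusted p = 0.0322). Rad23b lost its call without Vav1-Cre 2, floxed 1 or floxed 2 (edgeR adjusted p 0.0686 to 0.0976), and Ubqln1 without any 1 library other than Vav1-Cre 3 (0.0769 to 0.139).

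Pomp, the chaperone of beta ring assembly, measured 183.8, 171.8 and 178.7 against 245.9, 213.7 and 204.8 CPM (log2 0.31, edgeR adjusted p = 0.0196). It lost its call without Vav1-Cre 1 or any 1 floxed library (0.054 to 0.0948). Adrm1, a ubiquitin receptor of the regulatory particle, did not pass (103.2, 115 and 111.8 against 119.3, 121.4 and 114.1 CPM, log2 0.10, edgeR adjusted p = 0.35). Nfe2l1, the transcription factor that raises proteasome genes when degradation is impaired, was not called (76.2, 75.8 and 68.5 against 66.7, 72.4 and 63.9 CPM, log2 -0.12, 95% interval -0.29 to 0.05, edgeR adjusted p = 0.332). Ddi2, the protease that cleaves and activates the Nfe2l1 protein, fell from 32.7, 31.5 and 31 to 24.9, 27.5 and 22.6 CPM (log2 -0.34, edgeR adjusted p = 0.0347). That call was lost without any 1 library other than Vav1-Cre 2 (edgeR adjusted p 0.0503 to 0.107) and in DESeq2 (0.0587).

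The immunoproteasome genes encode catalytic subunits that interferon exchanges for those of Psmb5, Psmb6 and Psmb7. Psmb9 rose 1.29-fold (241.9, 228 and 228.3 against 325.5, 278.6 and 299.5 CPM, edgeR adjusted p = 0.00673) and Psmb8 1.17-fold (296, 296.7 and 316.4 against 363.3, 348.7 and 347.8 CPM, 0.0483). Psmb8 lost its call without any 1 library other than Vav1-Cre 3 (edgeR adjusted p 0.0615 to 0.192). Psmb10 measured 193.1, 193.3 and 201.6 against 237.6, 198.1 and 211.9 CPM and did not pass (log2 0.14, edgeR adjusted p = 0.251).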

How the data were processed

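Per the file headers, the authors deposited for each library a table of read counts, in whole numbers, and FPKM by Ensembl gene. Totals differ between libraries and the counts were treated as raw; no source used here says whether they had been scaled before rounding. The submitters' processing notes list Bowtie and mm8 with no roles. No source used here names the counting tool or the strand setting. Gene lengths implied by count and FPKM equalled merged exon lengths of GENCODE release M21 (GRCm38) within 0.01% for 94.9% of genes with over 200 counts, so symbols and coordinates come from that release. The authors' FPKM values are scaled between libraries and do not use raw totals.

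Counts were tested with edgeR 4.0.16 (R 4.3.3): TMM, default filter (minimum count 10), robust quasi-likelihood fit, Benjamini-Hochberg adjustment over all tested genes. Tools compared were DESeq2 1.42.0 and limma 3.58.1 (log2 of FPKM + 1 or + 0.1, mean FPKM of at least 0.5). No 2 libraries agreed within sampling noise (chi-square per gene at least 12.0). The fits were tested on simulated data. For genes changed by a log2 of 0.5, edgeR recovered 25%, limma-voom 23% and DESeq2 34%. For genes changed by a log2 of 1.0, edgeR recovered 86%. Small changes were thus often missed there. False calls numbered 10 in edgeR, 9 in limma-voom and 21 in DESeq2. The changed genes were drawn over a wide range of levels, while most members are well expressed, so these rates are not the members' own. Replicates were numbered by accession order and are not paired.

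Genes named with values were, per role, the up to 4 smallest p and the lowest fold change, plus a fixed part of a list of 31 ubiquitin system genes, of which 30 matched the tables (some that the rule names are not reported here); Psma1, Psma3, Psmb6, Psmb7, Psmd4, Psmd12 and Rps27a were added after their values were seen. The members and lists were chosen with earlier results of these data known. Sequences are from RefSeq.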

Additional observations from a re-analysis of the deposited data

How the results depend on the processing

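No paired analysis was possible because the labels carry no replicate numbers shared between the groups. Of 19 alternatives, every one kept the members' median above 0 except quantile scaling, and the cause of that exception was not tested. Genes called in all were 2621, against 1532 and 1581 with limma on log2(FPKM + 0.1) and log2(FPKM + 1) and 660 without an FPKM filter. Those higher were 967 with + 0.1, 435 unfiltered and 663 with quantile scaling; those lower were 565, 586 and 225 with + 0.1, + 1 and no filter. Leaving out libraries gave 1218 to 3295 in all, 682 to 1882 higher and 507 to 1413 lower. Members higher were 6 without an FPKM filter and 0 with quantile scaling, and 10 to 23 with a library left out. Members lower were 2 with the length offset (Psma8, Psmg4) and 2 with quantile scaling (Psma8, Psma1). Core genes higher were 5 (length offset), 4 (+ 0.1), 4 (+ 1), 2 (unfiltered), 0 (quantile), 6 (robust option off) and 5 (upper-quartile scaling), and 2 to 10 with a library left out; regulatory genes were 3 unfiltered and 0 with quantile scaling. The core median was 0.15 with the length offset and -0.022 with quantile scaling, and the regulatory median 0.087 with the latter. The core minus regulatory difference was -0.081 and -0.11 in these 2 settings. The share ratio was 1.12 outside immunoglobulin genes, an alternative chosen after seeing the data. Ubiquitin system genes higher were 3 (+ 0.1), 3 (+ 1), 1 (unfiltered), 1 (quantile), 4 (upper-quartile) and 2 to 9 with a library left out. Those lower were 0 in DESeq2, with the length offset, + 0.1, + 1 and unfiltered, 2 with quantile scaling, and 0 to 1 with a library left out.

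The sign turned for 21 of 46 members under quantile scaling, 6 with the length offset, 4 with upper-quartile scaling, 2 with no count filter, 1 with a mean count of at least 50, and 2 or 3 with a library left out. Among the genes described with values in every library, it turned under quantile scaling for Adrm1 (-0.033), Psma1 (-0.25), Psma4 (-0.022), Psmb2 (-0.065), Psmb4 (-0.19), Psmb8 (-0.10), Psmb10 (-0.20), Psmc3 (-0.035), Psmc6 (-0.006), Psmd10 (-0.043), Psmd14 (-0.073), Psme1 (-0.24), Psme2b (-0.0074), Psme3 (-0.079) and Psmg4 (-0.26). It turned there for Psmb6 as well. With the length offset it turned for Psma1 (-0.035), Psmd10 (-0.0501), Psme2b (-0.16), Psme4 (0.063) and Psmg4 (-0.63), and with upper-quartile scaling for Psma1 (-0.023). With a library left out Psma1 ran from -0.029 to 0.038, Psme4 from -0.081 to 0.058, Psmg1 from -0.098 to 0.022 and Psmg4 from -0.045 to 0.12. Counting error was not separated from the spread between libraries, and 3 libraries per group limit what can be called.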

Other observations

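Rps27a, which encodes ubiquitin fused to a ribosomal protein, varied more between libraries than any member. It measured 1593, 1110 and 1551 CPM in the floxed libraries and 1324, 518 and 580.8 CPM in Vav1-Cre 1, 2 and 3 (log2 -0.81, 95% interval -2.07 to 0.45, edgeR adjusted p = 0.321). The gene has many near-identical copies in the genome, so its counts are uncertain. It was chosen after its values were seen.

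The annotated pseudogenes Psmb5-ps, Psmb6-ps, Psmb6-ps2 and Psmb7-ps2 had 0 counts in all 6 libraries.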
